A study of Bos taurus with 19 samples.

Results

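Genes of adipocytes and of fatty acid synthesis were described in the longissimus dorsi, a muscle of the back, of 19 bull calves. The set was named by identifier as 7 Ensembl genes, by their function and not by a measured value. Earlier results of these data were known when it was chosen. FASN (ENSBTAG00000015980), ACACA (ENSBTAG00000017567), LPL (ENSBTAG00000012855), FABP4 (ENSBTAG00000037526) and LEP (ENSBTAG00000014911) were measured, which is 5 of the 27570 genes with a row of counts. SCD (ENSBTAG00000045728) and ADIPOQ (ENSBTAG00000019813) were not analysed here. Of the 5 genes measured, 4 had enough counts for the comparison across all genes, and LEP did not.

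The calves, labelled as of Brangus-Angus breed, were sampled at 1 month of age, and the diets were those of their dams. All dams received low-quality limpograss hay with molasses and urea. The dams of 9 calves received nothing further (control), and those of 10 calves also received rumen-protected methionine, 3.7 g a day for each cow (methionine-rich diet), from day -30 to day 90 around the breeding season. The calves themselves are named by the numbers in their labels, and each gave 1 library made by poly(A) capture, so differences between libraries include those between animals.

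Adipocytes store fatty acids as triglyceride, and in muscle they lie between the fibres and the fibre bundles as intramuscular fat, known as marbling in beef cattle. Fatty acids reach them by synthesis within the cell or by release from lipoproteins of the blood. In ruminants, adipose tissue is the main site of fatty acid synthesis and acetate is its main carbon source. Muscle fibres also take up fatty acids from lipoproteins, to burn them, so the genes named here are not all particular to adipocytes.

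The total count was between 49077786 and 88539777 per calf (median 73360965). The 25 most abundant genes took 34.5% to 43.7% of it and were left out, as were genes with low counts. Levels are given as CPM, the counts of a gene per 1000000 counts of the 14518 genes left, after TMM scaling. On that scale 3 counts, the limit that a count of 0 allows, came to between 0.0530 and 0.102 CPM, for counting error only. The lengths of the transcripts were not at hand, so levels were compared between calves and not between genes. Over all 14518 genes tested, calf 6412 of the methionine-rich diet stood apart most, with 211 genes over 2-fold above the next calf. The 2 calves that held most FABP4 and LEP counts, 6152 of the methionine-rich diet and 6157 of the control diet, had 11 and 56 such genes. Markers of muscle and of other cells were not looked up, since the tables used here paired no identifier with a symbol.

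Most counts of the adipocyte genes came from 2 calves. Calf 6152 held 91.6% of the LEP counts and 75.3% of the FABP4 counts of all 19 calves, and calf 6157 held a further 8.41% and 14.2%. The share of calf 6152 was 20.6% for FASN, 10.5% for ACACA and 7.75% for LPL. Its level was 4.33-fold the median of the other calves for FASN, 1.91-fold for ACACA and 1.39-fold for LPL. In calf 6157 the level was 1.64-fold the median of the 17 calves other than these 2 for FASN, 1.10-fold for ACACA and 1.03-fold for LPL. In whole tissue, more adipocytes in a sample and more RNA of these genes per cell cannot be told apart.

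**Figure D1:**
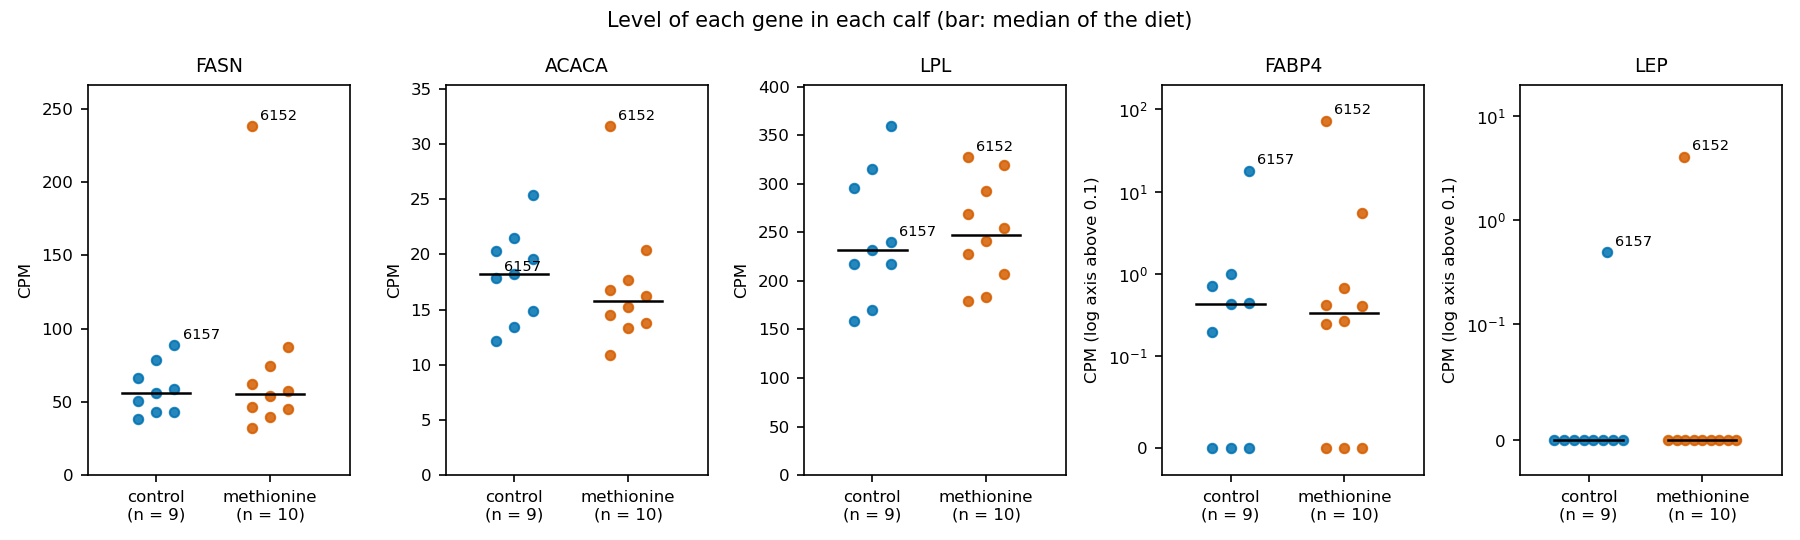
Level of each gene in each calf in CPM, by maternal diet (9 control calves in blue, 10 methionine calves in orange), with the median of each diet as a bar. The axes of FABP4 and LEP are logarithmic above 0.1 CPM and linear below it, and calves 6152 and 6157 are labelled. Calf 6152 lies highest for FASN, ACACA, FABP4 and LEP, and LEP was at 0 in 17 calves.

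FASN, fatty acid synthase, builds palmitate from acetyl and malonyl units. In the control calves its level was lowest in calf 6520, at 38.6 CPM, had a median of 56.0 CPM and was highest in calf 6157, at 88.6 CPM. In the methionine calves it was lowest in calf 6438, at 32.0 CPM, had a median of 55.5 CPM and was highest in calf 6152, at 238 CPM. The medians of the diets lay close together and the ranges overlapped, and calf 6152 was the only calf above 88.6 CPM. The second highest methionine calf, 6228, had 87.7 CPM. Control calves had a mean of 58.1 ± 17.0 CPM (SD, n = 9) and methionine calves one of 73.6 ± 60.1 CPM (SD, n = 10), or 55.4 ± 17.4 CPM (SD, n = 9) without calf 6152.

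ACACA, acetyl-CoA carboxylase alpha, makes the malonyl-CoA that FASN uses. In the control calves its level ran from 12.1 CPM in calf 6482 over a median of 18.2 CPM to 25.4 CPM in calf 6226. In the methionine calves it ran from 10.9 CPM in calf 6412 over a median of 15.7 CPM to 31.6 CPM in calf 6152. The ranges overlapped, and calf 6152 again lay above all others, by a smaller margin than for FASN. Mean levels were 18.1 ± 4.19 CPM (SD, n = 9) under the control diet and 17.0 ± 5.74 CPM (SD, n = 10) under the methionine-rich diet.

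The ratio of FASN to ACACA counts, of RNA for enzymes of consecutive steps, varied between calves. Control calves had between 2.11 and 4.96 FASN counts per ACACA count (median 3.08), and methionine calves had between 2.33 and 7.53 (median 4.06). The highest ratio was that of calf 6152, and the highest among the other calves was 5.24, in calf 6412, the calf with the lowest ACACA level. The ratio was 0.25 higher on the log2 scale in the methionine calves, a difference that calves vary by in any case (exact permutation test, two-sided, over 92378 divisions of the calves, p = 0.286).

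LPL, lipoprotein lipase, frees fatty acids from circulating triglyceride at the capillary wall and is made by muscle fibres as well as adipocytes. In the control calves its level ran from 158 CPM in calf 6482 over a median of 232 CPM to 359 CPM in calf 6254. In the methionine calves it ran from 179 CPM in calf 6419 over a median of 248 CPM to 328 CPM in calf 6152. The highest level of all was thus in a control calf, and calf 6157, at 240 CPM, lay near the middle of its diet. Mean levels were 245 ± 66.5 CPM (SD, n = 9) under the control diet and 250 ± 52.7 CPM (SD, n = 10) under the methionine-rich diet.

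FABP4, the fatty acid binding protein of adipocytes, which endothelial cells and macrophages also make, had the largest SD of log2 CPM of the 4 genes tested. In the control calves its level was 0 in calves 6482, 6254 and 6126, had a median of 0.435 CPM and reached 0.983 CPM in calf 6133 and 18.0 CPM in calf 6157. In the methionine calves it was 0 in calves 6453, 6419 and 6485, had a median of 0.338 CPM and reached 5.51 CPM in calf 6228 and 72.6 CPM in calf 6152. Counts showed the same order, with 3497 in calf 6152, 661 in calf 6157, 281 in calf 6228, 9 to 36 in 10 calves and 0 in 6. The level in calf 6152 was 215-fold the median of the other calves, and that in calf 6157 was 67.1-fold the median of the 17 calves other than these 2. Against the highest limit that a count of 0 allowed among the 6 calves without FABP4, the level was at least 711-fold higher in calf 6152 and at least 176-fold higher in calf 6157. These bounds cover counting error only, and no calf had a count between 0 and 9.

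LEP encodes leptin, the hormone by which adipocytes signal the size of the fat store. It had 196 counts in calf 6152, or 4.07 CPM, 18 counts in calf 6157, or 0.491 CPM, and none in the other 17 calves. The level was at least 39.9-fold higher in calf 6152, and at least 4.81-fold higher in calf 6157, than the highest limit of a count of 0 among those 17 calves. These bounds, too, cover counting error only. Each diet thus held 1 calf with LEP, and these were the calves with the most FABP4 in their diet. LEP took 5.31% of the LEP and FABP4 counts together in calf 6152 (95% exact binomial interval 4.61% to 6.08%) and 2.65% in calf 6157 (1.58% to 4.16%), and the intervals, which cover counting error only, did not overlap. In calf 6228, the next in FABP4, it took 0 of 281 (0% to 1.30%), and the limit of 3 counts allows a share of up to 1.07%.

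The spread between calves was set beside that of other genes as a description. The SD of log2 CPM over the 19 calves was 0.64 for FASN, 0.38 for ACACA, 0.34 for LPL and 3.01 for FABP4, and its median over all genes tested was 0.40. For FABP4 the 6 calves with no count share 1 value, -4.42, set by the prior count of 2. Its SD and its r on log2 CPM therefore depend on that setting. Low counts spread more on this scale, so each gene was also placed among the 500 genes nearest to it in mean level. There the SD lay at the 95.8th percentile for FASN, the 66.6th for ACACA, the 81.4th for LPL and the 99.8th for FABP4. Without calves 6152 and 6157 these were 86.2, 50.6, 81.4 and 94.4, so LPL kept its place and the other genes moved down. These calves were left out after their values had been seen. Leaving out calves picked for high values favours a lower SD, so the moves are a description only. Levels followed the total count of a calf loosely, with r between 0.08 and 0.26 over the 4 genes.

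The main comparison of the study was that of coexpression between genes, and of its dependence on maternal methionine. Of the 6 pairs among FASN, ACACA, LPL and FABP4, 2 were correlated across the 19 calves at an adjusted p-value under 0.05, and both held FASN. For FASN and FABP4, Pearson's r was 0.671 (permutation test with 100000 draws, p = 0.00261, adjusted p = 0.0157). For FASN and ACACA it was 0.614 (permutation p = 0.00652, adjusted p = 0.0196). Neither pair passed by rank, with Spearman's rho of 0.374 and 0.398 (permutation p = 0.116 and 0.0919, adjusted p = 0.173 for each).

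Both relations rested on calf 6152. Without it, r was 0.409 for FASN and FABP4 and 0.327 for FASN and ACACA (adjusted p = 0.435 for each by permutation), and no pair passed. Without the 2 calves farthest from the median of FASN, 6152 and 6438, r was 0.489 and 0.270. Without calves 6152 and 6157, left out together after their values had been seen, r was 0.221 and 0.317. Without calf 6152, a relation of FASN with FABP4 or with ACACA was thus not detectable with this number of calves.

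The other 4 pairs did not pass at 19 calves on log2 CPM. On linear CPM, ACACA and FABP4 passed, with r of 0.692 (permutation test, adjusted p = 0.0292), and calf 6152 was highest in both genes. For ACACA and FABP4, r was 0.479 and rho 0.387 (permutation p = 0.0393 and 0.103, adjusted p = 0.0785 and 0.173), and r was 0.225 without the 2 calves farthest in ACACA, 6152 and 6412. For ACACA and LPL, r was 0.414 and rho 0.340 (permutation p = 0.0770 and 0.153, adjusted p = 0.115 and 0.183), and r was 0.348 without the same calves. For LPL and FABP4, r was 0.388 and rho 0.454 (permutation p = 0.101 and 0.0528, adjusted p = 0.122 and 0.173), and r was 0.503 without the 2 calves farthest in LPL, 6482 and 6254. LPL and FASN had the weakest relation, with r of 0.185 and rho of -0.014 (permutation p = 0.463 and 0.957, adjusted p the same), and r was -0.252 without calves 6152 and 6438. Without control calf 6254 alone, which had the highest LPL and no FABP4, 4 of the 6 pairs passed, with r of 0.556 for LPL and FABP4 and 0.545 for ACACA and FABP4 (adjusted p = 0.0293 for each by permutation).

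**Figure D2:**
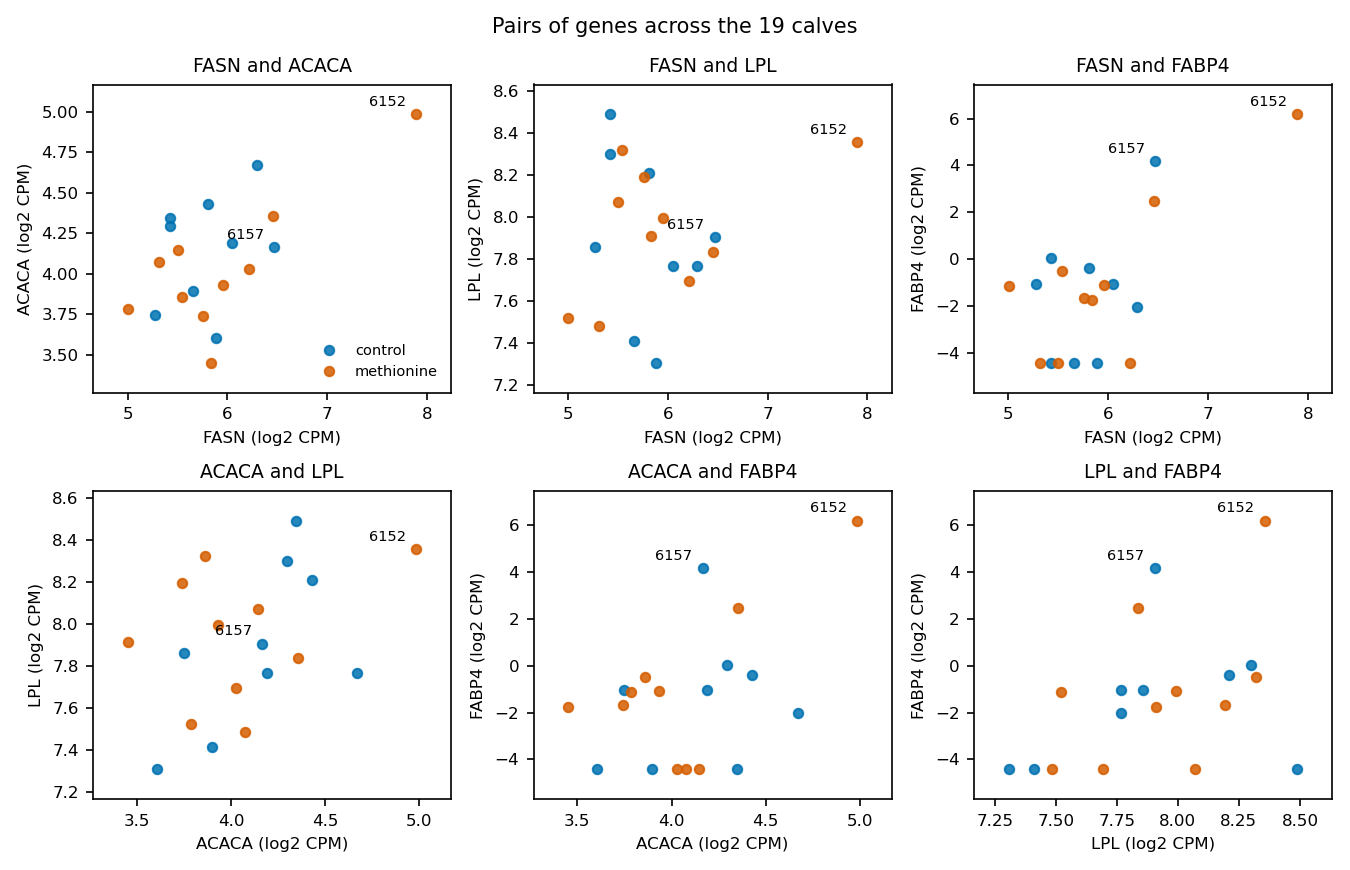
Log2 CPM of 1 gene against that of another in each of the 19 calves, for the 6 pairs, with control calves in blue and methionine calves in orange. FABP4 values at the bottom are the 6 calves with no count. Calf 6152 lies at the upper right of the FASN plots, away from the other calves.

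**Figure D3:**
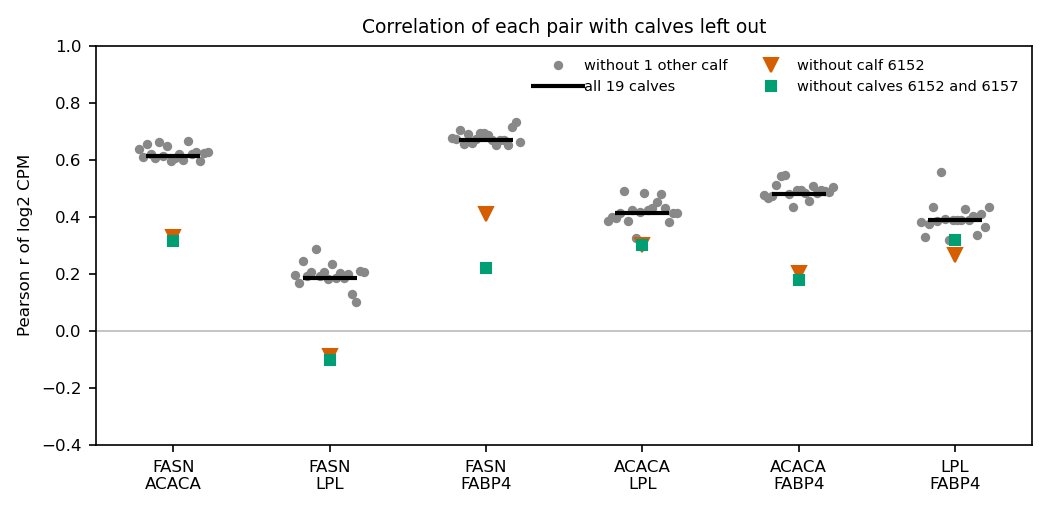
Pearson's r of log2 CPM for each pair over all 19 calves (bar), without each calf in turn (points, with calf 6152 as the triangle) and without calves 6152 and 6157 (square). Leaving out calf 6152 took r from 0.614 to 0.327 for FASN and ACACA and from 0.671 to 0.409 for FASN and FABP4.

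Within the diets, r is given as a description. FASN and ACACA had an r of 0.313 over the 9 control calves and 0.786 over the 10 methionine calves, which include calf 6152. For FASN and FABP4 it was 0.452 and 0.773, for FASN and LPL -0.330 and 0.499, and for ACACA and FABP4 0.256 and 0.645. For LPL and FABP4 it was 0.276 and 0.504, and ACACA and LPL was the only pair with the higher value in the control calves, at 0.606 against 0.289. The difference of r between the diets passed for 0 of the 6 pairs (two-sided exact permutation test over 92378 divisions), none had an unadjusted p under 0.05, and the smallest p was 0.159, for FASN and LPL (adjusted p = 0.665). On linear CPM, 1 pair had an unadjusted p under 0.05, ACACA and FABP4, with an exact permutation p of 0.0165 and an adjusted p of 0.0987.

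Among the other 14517 genes tested, the order of likeness by r of log2 CPM over the 19 calves put FABP4 20th and ACACA 33rd for FASN, and LPL 3798th. FASN was 16th for FABP4 and 58th for ACACA. The gene most like FASN, ENSBTAG00000010564, was also the most like FABP4, with r of 0.808 and 0.826. Its level was 18.3 CPM in calf 6152, 11.0 CPM in calf 6157 and between 1.08 and 4.90 CPM in the other 17 calves, and without those 2 calves r was 0.529 and 0.542. For LPL and ACACA the nearest genes were others and rested less on these calves. ENSBTAG00000017077 had r of 0.830 with LPL (0.820 without the 2 calves), and ENSBTAG00000018524 had r of 0.777 with ACACA (0.764). A value of r of at least 0.8 was reached by 3 genes for LPL, 1 for FASN, 1 for FABP4 and 0 for ACACA.

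Expression was then compared between the diets. None of the 4 genes tested differed at an adjusted p-value under 0.05 in edgeR's quasi-likelihood test, where 0 of 14518 genes did (0%), and none of them was among the 719 genes (4.95%) with an unadjusted p under 0.05. DESeq2 called 7 genes, 6 higher and 1 lower in the methionine calves, and none of the 4. The log2 fold change, methionine over control, was 0.34 for FASN (SE 0.30, 95% interval -0.27 to 0.96, adjusted p = 0.994) and -0.09 for ACACA (SE 0.17, interval -0.45 to 0.27, adjusted p = 0.996). For LPL it was 0.03 (SE 0.15, interval -0.28 to 0.34, adjusted p = 0.998), the narrowest interval of the set. For FABP4 it was 1.80 (SE 1.43, interval -1.16 to 4.76, adjusted p = 0.994), so that a difference of several fold in either direction was not detectable with this spread between calves.

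LEP, read from the fit without the filter on low counts, had a log2 fold change of 2.89 (SE 1.74, interval -0.72 to 6.50, adjusted p = 0.611). The estimates of FABP4 and LEP changed direction with the calf left out. Without calf 6152 they were -1.45 and -4.25, and without calf 6157 they were 4.52 and 7.17. Their intervals excluded 0 for LEP in either case and for FABP4 without calf 6157, but none passed over all genes in edgeR, with adjusted p of 0.999 for FABP4 and 0.352 for LEP without calf 6152, and 0.999 and 0.377 without calf 6157. In these LEP fits 1 diet had no count at all, so their size depends on the fit and is no bound. With both calves left out, the FABP4 value was 1.27. For FASN the estimate was -0.07 without calf 6152.

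The difference in mean log2 CPM, methionine minus control, was tested for single genes without a count model. It was 0.14 for FASN, -0.11 for ACACA, 0.05 for LPL and 0.43 for FABP4, none of them larger than the variation among calves (exact permutation test, two-sided, p = 0.697, 0.529, 0.768 and 0.767). For LEP, with 1 calf above 0 in each diet, the mean CPM was 0.353 higher in the methionine calves, and with counts in only 2 calves no test of this difference was informative.

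**Figure D4:**
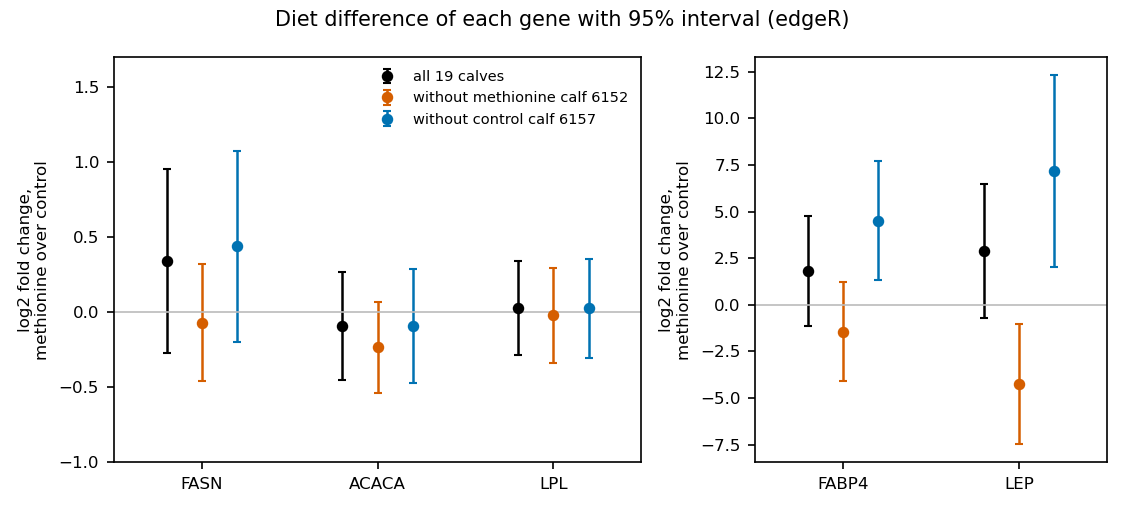
Log2 fold change between maternal diets, methionine over control, with its 95% interval from edgeR, over all 19 calves, without methionine calf 6152 and without control calf 6157. FASN, ACACA and LPL share the left axis, and FABP4 and LEP the right, wider axis. FABP4 and LEP lay below 0 without calf 6152 and above 0 without calf 6157.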

How the data were processed

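Libraries were made from longissimus dorsi RNA by poly(A) capture and sequenced as paired reads. Per the labels and the study's methods, the authors trimmed reads with Trim Galore 0.4.4, aligned them to ARS-UCD1.2 with HISAT2 2.1.0, and used HTSeq for the counting. The deposited values are raw counts per Ensembl gene, 1 library per calf. Neither source gives a sequencing batch or whether counting used strand. No filter was applied to calves.

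The 25 most abundant genes by mean count were removed, then those whose count was 5 or less in 9 or more calves, which left 14518. CPM is the count per 1000000 counts of these 14518 genes, after TMM factors, and log2 CPM used a prior count of 2. LEP, which is not among them, was scaled to the same total. Diets were compared with edgeR 4.0.16 (limma 3.58.1) in R 4.3.3 by the quasi-likelihood test, and p-values were adjusted over all genes (Benjamini-Hochberg). DESeq2 1.42.0 was an alternative, in which 2 FABP4 counts were replaced as outliers by its default. Standard errors were derived from the F statistic and intervals from its t quantile. Correlations were tested by permuting the pairing 100000 times, adjusted over 6 pairs, and differences between diets over all divisions into 9 and 10 calves, with scipy 1.17.1, pandas 2.3.3 and numpy 2.4.6 under Python 3.11.15. Plots used matplotlib 3.10.9. The scripts were tested on simulated data.

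The genes and lists were chosen with earlier results of these data known. Genes named were the members and, for each, the genes of highest r. The analysis was planned for all pairs of the 7 genes, but SCD and ADIPOQ were not analysed here and LEP had counts in 2 calves, which left 6 pairs. A set of 16 pathway and marker lists, fixed by symbol, gave no result because 0 identifiers could be paired with a symbol, and symbols of the members came with the choice of genes. Sequences and coordinates are not given, since the gene table used here is of another build. The alternatives tried were DESeq2, RLE size factors, other filters, total count as a covariate, other scales and correlations, and leaving out calves.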

Additional observations from a re-analysis of the deposited data

Results flagged for a closer look

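Within each diet, the highest and the lowest calf were examined for a gap from the nearest calf that was large against the range of the diet. FASN, ACACA and LPL were examined as log2 CPM and FABP4 and LEP as CPM. Of the 10 groups of calves examined, 5 held such a calf, and each was 6152 or 6157, so the 5 are not independent of each other. The limit is set for values near a normal distribution, of which it marks about 1 in 20 groups, and CPM of FABP4 and LEP is far from that, so no chance number is set beside the 5. For FASN in the methionine calves the gap below calf 6152 was 0.498 of the range. For FABP4 the gap was 0.945 of the range below calf 6157 in the control calves and 0.924 below calf 6152 in the methionine calves. On log2 CPM, the scale of the other genes, these were 0.481 and 0.350, both under the limit, a check added after the values were seen. For LEP it was 1 in each diet, which is fixed whatever the count, since every other calf was at 0. ACACA in calf 6152 had a gap of 0.411 of the range, under the limit for 10 calves, and LPL had no outlying calf. The content of adipocytes in these samples was not tested.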

How the results depend on the processing

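The number of genes called between diets was 7 with DESeq2 and from 0 to 1 with each calf left out in turn (1 without control calf 6520). No gene described here was called under any alternative run. Leaving out each calf gave log2 fold changes from -0.069 to 0.44 for FASN, -0.024 to 0.12 for LPL, -1.45 to 4.52 for FABP4 and -4.25 to 7.17 for LEP, and the 4 lowest values were below 0. ACACA stayed below 0 in all 25 alternatives. With the total count as a covariate the values were 0.17 for FASN, 3.08 for FABP4, -0.20 for ACACA and -0.0098 for LPL, DESeq2 gave 1.19 for FABP4, and without calves 6152 and 6157 the values were 0.035 for FASN, -0.23 for ACACA and -0.021 for LPL. The number of correlated pairs was 0 with Spearman's rho, 0 without calves 6152 and 6157 and 0 with rho without them. It was 3 on linear CPM and 5 on log2 counts not scaled for depth. With each calf left out it ran from 0 (without calf 6152) to 4 (without calf 6254). For FASN and LPL, r was -0.10 without both calves, rho was -0.014 and, without both, -0.19, and leaving out each calf gave -0.089 to 0.29. Counts not scaled for depth still hold the differences in library size. The cause of these shifts was not tested. The alternatives that leave out both calves were chosen after the data were examined. The calf numbers name single animals and pair none across the diets, and the study's methods give no pairing, so no paired analysis was done. LEP and FABP4 were at 0 in 17 and 6 calves, where a count of 0 allows a level of up to 3 counts. Whether these zeros depended on depth was not tested.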

Other observations

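LEP was 1 of 2 genes with at least 10 counts in calves 6152 and 6157 and none in the other 17. These calves were picked with their LEP counts known, so at least 1 such gene was fixed in advance. Over the 171 pairs of calves the number of such genes had a median of 0 and a highest value of 5, in calves 6472 and 6228. There were 3 pairs with more than calves 6152 and 6157, and others had as many.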
